A study of Caenorhabditis elegans with 2 samples.

Results

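The regions described here, called the band, come directly after the last accepted peak in a genome-wide ranking of TBX-2 binding. They number 561 with their summit in a promoter and 792 elsewhere, together 4.51% of the 30000 ranked regions. Anti-GFP chromatin immunoprecipitation with sequencing (ChIP-seq) was performed on whole hermaphrodites of Caenorhabditis elegans strain OP159, genotype unc-119(ed3) III; wgIs159, whose integrated transgene makes TBX-2 with a GFP-FLAG tag at its C terminus. First-stage (L1) larvae were starved after bleaching and collected 6 h after synchronization, as 2 biological replicates of 1 group, with no second condition. The band was chosen by the authors' pooled signal: in the list pooled from both replicates it follows the regions that the authors kept by the irreproducible discovery rate (IDR), and it holds none of them. The IDR peaks, 2487 in promoters and 1897 elsewhere, are exactly the strongest regions of the same pooled list. Further sets of the band's size serve for comparison, the regions ranked next below it (next regions) and the weakest IDR peaks, directly above it. Ranks, signals and q-values of the band are therefore given as a description, and tests were run only on position and sequence, which the choice did not use. Read numbers are not part of the lists, and the depth behind a region is therefore unknown. Whole animals were used, so binding in fewer cells and weaker binding in each cell cannot be told apart. Replicates 1 and 2 share strain, stage and antibody. The antibody field of the labels reads tbx-2, whereas the description names an antibody to GFP, and the description is followed here. How far the wgIs159 transgene extends around tbx-2 is not given in the sources used here.

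T-box transcription factors such as TBX-2 form a family with Brachyury and bind DNA through a conserved domain. In C. elegans TBX-2 is known for its part in making the anterior pharyngeal muscles, and it also acts in some sensory neurons. T-box proteins recognise a core that reads GTGTGA on one strand and TCACAC on the other. IDR analysis compares the rank order of regions in replicates and sets the rank down to which they reproduce each other. Regions under that rank are usually left out of a study, although each is an individual site with its own genes and sequence.

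The sequences below reach 50 bp to each side of the summit, the base of highest signal in a region, on the plus strand of WBcel235, the assembly of the ce11 lists, from the RefSeq genome. The first set shows band summits in promoters of 4 pharyngeal genes, the actin gene act-3, the pharyngeal troponin I gene tni-4, the pharyngeal troponin C gene tnc-2 and marg-1, listed with genes of the marginal cells. Capitals mark the T-box core, a single match, which lay in the tnc-2 window.
act-3 promoter (chrV:11074525-11074625): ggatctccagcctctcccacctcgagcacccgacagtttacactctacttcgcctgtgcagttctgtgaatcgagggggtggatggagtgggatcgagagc
tni-4 promoter (chrIV:5204276-5204376): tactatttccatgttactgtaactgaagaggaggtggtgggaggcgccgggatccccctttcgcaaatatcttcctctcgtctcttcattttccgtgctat
tnc-2 promoter (chrII:10466678-10466778): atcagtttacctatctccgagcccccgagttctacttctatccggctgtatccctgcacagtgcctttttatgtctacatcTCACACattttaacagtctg
marg-1 promoter (chrX:3781266-3781366): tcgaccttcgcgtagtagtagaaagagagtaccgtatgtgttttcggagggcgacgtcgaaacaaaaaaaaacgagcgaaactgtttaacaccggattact

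The second set shows the motif with the largest difference between band summits and their flanks among those searched, a run of alternating G and A (GAGAGA, or TCTCTC on the other strand), here called the GAGA repeat. It is not particular to the band, since IDR peaks held it more often, as given further on. Capitals mark each GAGA repeat and, in nhr-65 and mrpl-36, a 9-base word (CTGCGTCTC, or GAGACGCAG) described further on. The windows belong to a nuclear receptor gene (nhr-65), a mitochondrial ribosomal protein gene (mrpl-36), the body wall muscle myosin gene myo-3, the synaptic gene unc-18, the casein kinase gene kin-20 and the zinc finger gene zfp-1.
nhr-65 promoter (chrV:18838982-18839082): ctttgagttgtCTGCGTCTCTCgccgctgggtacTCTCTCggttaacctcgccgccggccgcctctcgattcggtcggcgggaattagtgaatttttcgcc
mrpl-36 promoter (chrIII:9848245-9848345): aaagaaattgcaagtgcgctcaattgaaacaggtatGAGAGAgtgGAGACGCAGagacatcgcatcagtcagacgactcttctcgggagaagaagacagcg
myo-3 promoter (chrV:12234788-12234888): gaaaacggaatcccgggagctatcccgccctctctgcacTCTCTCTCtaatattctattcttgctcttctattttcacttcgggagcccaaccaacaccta
unc-18 promoter (chrX:7682490-7682590): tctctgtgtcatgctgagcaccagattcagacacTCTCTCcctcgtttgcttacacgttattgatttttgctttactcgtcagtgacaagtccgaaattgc
kin-20 promoter (chrX:15274326-15274426): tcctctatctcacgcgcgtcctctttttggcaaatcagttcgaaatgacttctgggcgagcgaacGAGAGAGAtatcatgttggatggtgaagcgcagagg
zfp-1 promoter (chrIII:8797577-8797677): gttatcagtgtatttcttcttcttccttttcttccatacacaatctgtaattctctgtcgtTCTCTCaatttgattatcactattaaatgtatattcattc

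The third set gives windows with a site of the type bound by the forkhead factor PHA-4 (TGTTTGC, or GCAAACA), the master regulator of the pharynx, in capitals. One lies upstream of kin-36 and also holds a T-box core, and the other is in the promoter of the replication gene mcm-5.
kin-36 upstream (chrIV:4677345-4677445): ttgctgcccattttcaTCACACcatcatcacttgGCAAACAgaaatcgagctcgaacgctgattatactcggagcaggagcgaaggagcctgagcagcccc
mcm-5 promoter (chrIII:4291445-4291545): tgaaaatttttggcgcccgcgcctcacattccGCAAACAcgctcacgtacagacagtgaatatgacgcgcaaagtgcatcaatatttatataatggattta

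In the pooled list the signal of the band ran from 58.3 to 76.8, with a median of 66.3. It is the authors' strength of a region on a scale that is not stated. Below the band, the next regions ran from 46.7 to 58.26 (median 52.0). The IDR peaks above had a median of 145 and a minimum of 76.84. Signal fell without a step at either end of the band. The first band region, in an intron of R04E5.7 on the X chromosome, had a signal of 76.79. The last IDR peak, 450 bp upstream of arx-5, a gene of the Arp2/3 actin complex, had 76.84. At the lower end, the last band region (in an intron, nearest to T27E9.6) had 58.2623. The first region outside, an intergenic one nearest to tsr-2, had 58.2586. The other regions just inside the upper end lay in the promoter of dhs-9, upstream of kin-36, in the promoter of chat-1 and in an intron nearest to F17H10.2, with signals of 76.75 to 76.77. Just outside it were regions in the promoters of T11G6.4 and dnj-20, 1 nearest to egl-26, and 1 in the promoters of cdk-1 and iff-1, with signals of 76.837 to 76.889.

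**Figure D1:**
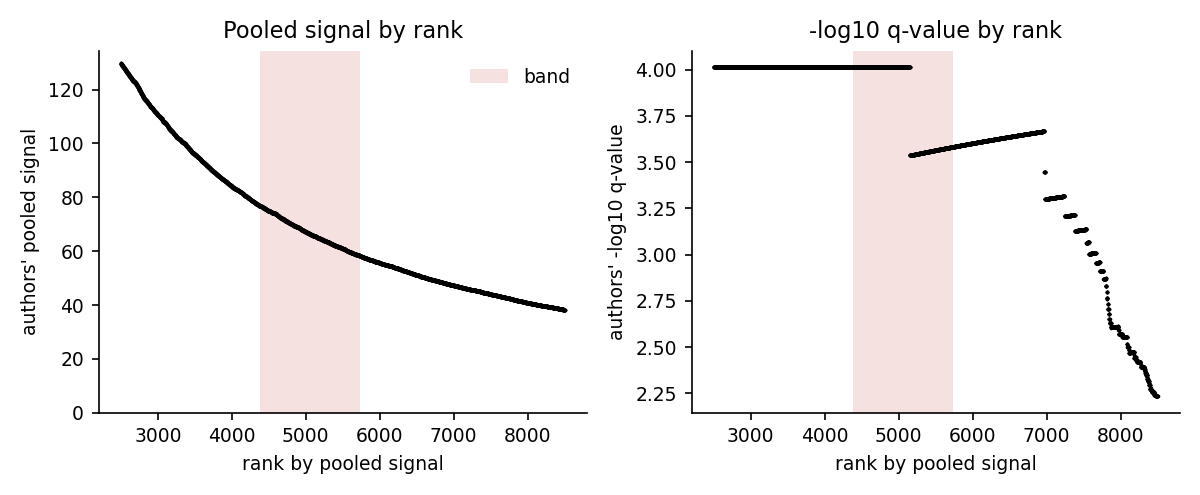
Authors' pooled signal (left) and -log10 q-value (right) against rank by pooled signal; each point is 1 region and the band is shaded. Signal passes smoothly through the band, whereas the q-value leaves its highest value, 4.01, after rank 5151, inside the band.

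The authors' q-value did step within the band. The highest −log10 q-value in the pooled list, 4.01, was shared by all IDR peaks and by 767 band regions (56.7%). For the other 586 band regions it was lower, down to 3.54, and no region below the band reached the top value. Nearly all band regions, 98.2%, were 400 bp wide, the width most common in the pooled list. That width was held by 49.0% of all IDR peaks and by 94.6% of the weakest IDR peaks.

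Most band regions were found again in each replicate, but seldom as strong regions in both. A summit of replicate 1 lay within 100 bp of 1263 band summits (93.3%), and 1 of replicate 2 lay within that distance of 1309 (96.7%). Both replicates matched 1224 (90.5%), and 5 were matched in neither. For comparison, both matched 97.2% of the IDR peaks and 83.7% of the next regions. The median signal of matched band regions was 25.4 in replicate 1 and 41.3 in replicate 2, and the median of the ratio of replicate 2 to replicate 1 was 1.61, the same as over the IDR peaks. Median ranks were 5428 and 5201, close to the pooled ranks. Each replicate's own list was then cut at the rank of the last band region in the pooled list. Down to that rank, 360 band regions (26.6%) were present in both replicates, 891 (65.9%) in 1 and 102 (7.54%) in neither. Of the weakest IDR peaks 78.9% were present in both, and of the next regions 0.296% (4). These shares follow in part from the choice, since a fixed pooled signal leaves a region that is high in 1 replicate low in the other.

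**Figure D2:**
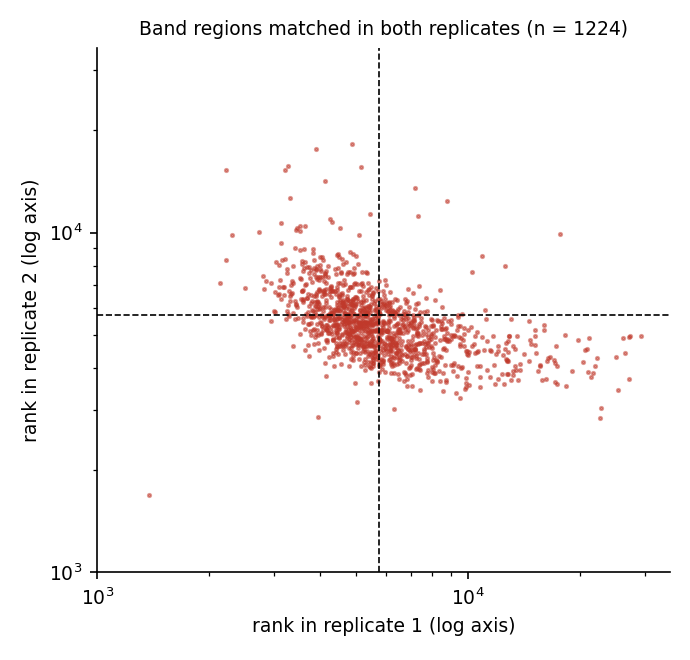
Rank of each band region in replicate 2 against its rank in replicate 1, both on log axes, for the 1224 regions matched in both; dashed lines mark the rank of the last band region in the pooled list. The lower left corner holds the 360 regions that both replicates place above that rank, and the tail to the right holds regions ranked low in replicate 1 alone.

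The tails of the 2 replicates differed in size. Replicate 1 placed 46 matched band regions below rank 15000 and replicate 2 placed 7 there. Of the 6 regions whose ranks differed most, all ranked lower in replicate 1. The largest gap was at a region in the promoter of R04E5.7 on X, at rank 29358 in replicate 1 (signal 7.27) and 4970 in replicate 2 (43.1). It was followed by a region nearest to cbl-1 (27245 and 3719), the promoter of hal-3 (27348 and 4951), a region nearest to zig-1, an immunoglobulin-domain gene (27224 and 4915), an intron nearest to saeg-1 (26582 and 4420) and the promoter of T14B1.1 (25349 and 3440). The nearest summit was taken, so a gap can come from a displaced summit as well as from weaker signal.

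A few band regions were matched to well-ranked summits in both replicates. The highest mean rank belonged to a region in the promoter of F48C1.3 and close to let-526, at rank 1378 in replicate 1 (signal 79.5) and 1686 in replicate 2 (110), although its pooled rank was 4628. Its pooled signal, 73.1, was below both replicate signals, and the region was 648 bp wide. The second was in the promoter of zfp-1, whose product is related to human AF10, at ranks 3933 and 2873 against a pooled rank of 5567. Its pooled signal, 60.1, was below that of replicate 2 (72.1), and the region was 150 bp wide. Introns held 7 of the 12 regions with the highest mean rank, against 22.0% of all band summits. Among them were introns nearest to ain-2, which encodes a partner of Argonaute proteins, to crh-1, the CREB gene, and to ahr-1, the aryl hydrocarbon receptor gene. Those nearest to tbx-2 and Y54H5A.2 lay within 20 kb of the tbx-2 start, a stretch described further on. Another of the 12 regions lay in the promoter of chat-1, at ranks 3643 and 4526. For 8 band regions both replicate ranks were as high as the pooled rank of the last IDR peak or higher. Here too the nearest summit was taken, so a high replicate rank can belong to a neighbouring or differently divided region. Whether it did was not tested.

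The band was defined where the authors' lists on 2 assemblies differ. Their IDR list on the older assembly, ce10, again holds the strongest regions of its pooled list, but is longer and ends at the rank of the last band region, so the counts that follow are set by the choice and are given as a description. Band regions were looked up there by chromosome, width, summit offset and signal within 0.1%, without converting coordinates. Of the band, 1332 regions (98.4%) were present in the ce10 IDR list, and none of the next regions was found there. The ce10 list reached down to a signal of 58.28, where the ce11 list ended at 76.84. The most common region width was 390 bp on ce11 and 384 bp on ce10 in replicate 2, and 380 bp on both in replicate 1. Whether the IDR threshold was the same on both assemblies was not given in the sources used here.

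Band summits lay at promoters less often than IDR summits. The promoter of a protein-coding gene was taken from 1000 bp before a start to 200 bp after it. It held 561 band summits, 41.5% (exact 95% interval 38.8 to 44.1), against 2487 IDR summits, 56.7% (55.2 to 58.2). The odds ratio was 0.540 (0.477 to 0.612), with p = 1.12e-21 by a two-sided Fisher exact test, adjusted after Benjamini and Hochberg over 12 features. Intergenic sequence held 32.9% of band summits and 25.7% of IDR summits (adjusted p = 1.15e-06, Fisher exact test). It means here all sequence outside protein-coding genes and their promoters, and so includes genes for small RNAs that lie there. Introns held 22.0% and 16.1% (3.22e-06), and coding exons 2.07% and 0.570% (9.95e-06). The classes exclude each other, so a lower promoter share raises the rest. Regions are counted here, and they are not replicates of a condition. Against the weakest IDR peaks alone, the band's promoter share was still lower (41.5% and 47.8%, adjusted p = 0.00605, Fisher exact test), while introns, coding exons and intergenic sequence no longer differed past the threshold.

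**Figure D3:**
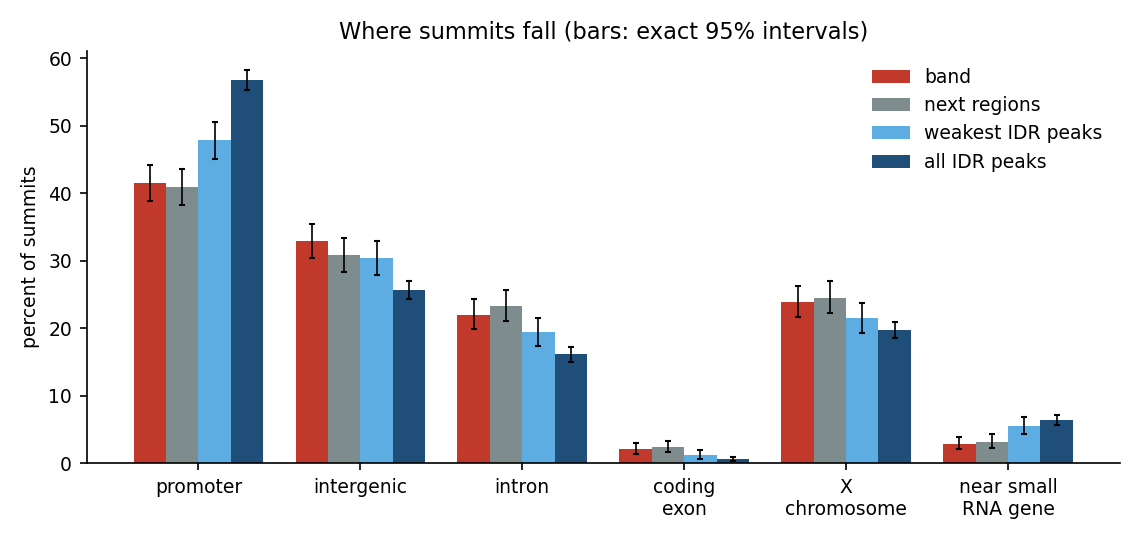
Percent of summits in each annotation class, on the X chromosome and within 200 bp of a tRNA, snRNA, snoRNA or rRNA gene, for the band, the next regions, the weakest IDR peaks and all IDR peaks; error bars are exact 95% intervals over regions. The band's bars overlap those of the next regions in every class.

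No position feature passed the threshold between the band and the next regions in the pooled list. Promoters held 41.5% of band summits and 40.9% of the next regions (odds ratio 1.02, interval 0.874 to 1.19). The X chromosome held 23.9% and 24.5% (0.968, 0.809 to 1.16), and the neighbourhood of small RNA genes 2.88% and 3.18% (0.904, 0.567 to 1.44). None of 12 features passed, the smallest adjusted p being 0.939, and none had an unadjusted p under 0.05 (Fisher exact tests). At the same ranks of replicate 1 alone 2 features passed, coding exons (-2.59 points) and small RNA genes (2.00 points), each with an adjusted p of 0.0110 by the Fisher exact test. Set against all 24263 lower regions, the band had more promoter summits (41.5% and 29.4%, adjusted p = 2.35e-19) and fewer coding exon summits (2.07% and 12.7%, adjusted p = 4.48e-43, Fisher exact tests). The promoter share fell along the ranking, with small reversals below rank 15000, at 70.5% over the first 325 regions, 47.8% over the weakest IDR peaks, 41.5% in the band and 23.2% over ranks 27386 to 28738.

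Genes for small structural RNAs were less common beside band summits. Of the band, 39 summits (2.88%, interval 2.06 to 3.92) lay within 200 bp of a tRNA, snRNA, snoRNA or rRNA gene, against 278 IDR summits (6.34%, 5.64 to 7.10). The odds ratio was 0.438 (0.303 to 0.619), with an adjusted p of 1.15e-06 by the Fisher exact test. The weakest IDR peaks had 5.47% there (adjusted p = 0.00605 against the band, Fisher exact test). By kind, snoRNA genes, whose products guide chemical changes of ribosomal RNA, stood beside 0.443% of band summits (6) and 1.98% of IDR summits (87). For tRNA genes the shares were 2.14% (29) and 3.83% (168).

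The X chromosome held 324 band summits, 23.9% (21.7 to 26.3), against 867 IDR summits, 19.8% (18.6 to 21.0). The odds ratio was 1.28 (1.10 to 1.48; adjusted p = 0.00222, Fisher exact test). The difference missed the threshold against the weakest IDR peaks, which had 21.5% on X (adjusted p = 0.284, Fisher exact test). It also missed it at the same ranks of replicate 1 alone (0.877 percentage points, adjusted p = 0.650, Fisher exact test). X carries 13.7% of the protein-coding genes. It held 18.3 band summits per Mb, and the autosomes 10.7 to 16.0 per Mb. On X 39.2% of band summits and 44.1% of IDR summits were in promoters. On the autosomes the band's promoter shares were 39.8% to 45.5%, and those of IDR peaks 56.8% to 62.4%. None of the autosomes differed between the band and the IDR peaks past the threshold in the pooled list. In the list of replicate 2 alone, the ranks of the band differed from those of the IDR peaks by -2.41 points for chromosome IV and 2.57 for V (largest adjusted p = 0.0420, Fisher exact test).

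Band summits were a median of 1048 bp from the nearest protein-coding start, against 546 bp for IDR summits, and 7.61% (103) were more than 5 kb away. Where they fell in a promoter, 91.4% of the pairs of summit and gene had the summit upstream of the start. The share was 95.9% for IDR peaks and 87.1% for the next regions. The promoter window, 1000 bp before and 200 bp after a start, favours upstream positions by design. Over all pairs of the band the median position was 248 bp upstream. Within 500 bp of an IDR summit lay 73 band summits (5.40%), against 7.10% of the next regions. Of IDR summits 5.52% had another IDR summit that near. The nearest were 199 bp away, and IDR summits came equally close to each other.

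The band reached 638 protein-coding genes through their promoters (3.19% of 19973). An IDR summit was already present in the promoters of 92 of them. The other 546 make up 3.24% of the 16859 genes without an IDR summit, and this share is the background for the gene lists below. For scale, the weakest IDR peaks added 705 genes to those of the stronger ones, and the next regions would add 473 more. Of the 561 promoter summits in the band, 91 (16.2%) lay in the promoters of 2 or more genes, where 31.1% of IDR promoter summits did. The start of any protein-coding transcript counts. Some promoter summits therefore lie inside a gene, beside the start of a shorter transcript, as for elt-3, irk-3 and kin-20. Genes are described by counts only. Counts without one of the replicates use the other replicate's own list at the same ranks, and so cover partly different regions. The lists were drawn up with results of these data known, so no test was made of them.

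Pharyngeal lists gained 4 genes in the band, all on lists of under 25 genes without an IDR summit. Of 23 genes on the pharyngeal muscle list, 11 had an IDR summit, and 2 of the remaining 12 (16.7%) were added by the band. The first is tni-4, a troponin I that regulates contraction of pharyngeal muscle. Its band summit lay 265 bp upstream of the start (chromosome IV, 5204326) with a pooled signal of 66.3, a signal of 31.5 and rank 4332 in replicate 1, and a signal of 36.8 and rank 5813 in replicate 2. The second is tnc-2, a pharyngeal troponin C, with a summit 124 bp upstream (chromosome II, 10466728), a pooled signal of 60.2 and ranks 8437 and 5506 in replicates 1 and 2. The tni-4 region thus ranked higher in replicate 1 and the tnc-2 region in replicate 2. The actin gene act-3, also on the list, had a band summit 77 bp upstream (pooled signal 74.3) beside an IDR summit of signal 89.2.

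Among 30 regulators of the pharynx, 1 of the 24 without an IDR summit had a band summit (4.17%). This was tlf-1, which encodes a relative of the TATA-binding protein, with a summit of signal 74.1 that also lies 4 bp upstream of the start of cdk-8, the kinase of the Mediator complex. Of the pharyngeal gland and marginal cell list, marg-1 was the 1 gene added of 13. Its summit, 176 bp upstream, had a signal of 63.0, at rank 9861 in replicate 1 and 4479 in replicate 2. None of the 8 SUMO pathway genes without an IDR summit, which act with TBX-2 in genetic studies, had a band summit. The same was true of the 20 T-box genes without an IDR summit, of the 10 candidate TBX-2 targets and of the 21 abu and pqn genes of the pharyngeal cuticle. At the background share of 3.24% each of these last lists would hold fewer than 1 gene. Without one of the replicates the pharyngeal muscle share was 2 or 3 of 14, and the regulators had 0 of 22 without replicate 1.

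Lists of body wall muscle, neurons, ion channels and epidermis gained 0 to 5 genes each. Neuron identity regulators gained 1 of 38 (2.63%) and ciliary genes 0 of 40, both below the background of 3.24%. The body wall muscle list gained 2 of 38 (5.26%). They are myo-3, the minor myosin heavy chain, with a summit 495 bp upstream (signal 65.5), and pat-10, the troponin C of body wall muscle (64.3). Without replicate 1 the list gained 7 of 41 (17.1%) and without replicate 2 it gained 5 of 40 (12.5%). Of the synaptic and pan-neuronal list 5 of 36 were added (13.9%). They include unc-18, the Munc18 regulator of vesicle fusion (signal 72.1, ranks 4068 and 5658), ric-7 (61.0), the synaptogyrin gene sng-1 (60.2) and unc-104, the kinesin that carries synaptic vesicle precursors (60.0). Without replicate 2 this list gained 2 of 34 (5.88%). Ion channels gained 4 of 157 (2.55%), also below the background, among them the potassium channel genes irk-3 (64.9) and sup-9 (63.7). Without replicate 2 the ion channel list gained 7 of 157 (4.46%). In the epidermal list 2 of 46 were added (4.35%; 1 of 46 in each replicate alone), the GATA factor gene elt-3 (64.9) and the alpha-catenin gene hmp-1 (62.4). The hmp-1 region ranked 3139 in replicate 1 and 10705 in replicate 2.

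Of the lists with at least 10 genes lacking an IDR summit, those for translation and mitochondrial ribosomal proteins had the largest shares. Translation factors and tRNA ligases gained 6 of 29 (20.7%), and mitochondrial ribosomal proteins 9 of 44 (20.5%), against 3.24% over all genes without an IDR summit. Other lists of genes that most cells use lay lower, with chromatin modifiers at 4 of 52 (7.69%), splicing at 2 of 31 (6.45%) and chaperones at 0 of 31. The tRNA ligase genes include qars-1 (signal 73.1), sars-1 (65.9) and tars-1 (65.1), which charge tRNAs with glutamine, serine and threonine. Another, inf-1 (72.1), encodes the helicase eIF4A. For mitochondrial ribosomal proteins the strongest were mrpl-9 (71.8), mrpl-36 (69.6), mrpl-34 (66.3) and mrpl-41 (65.5). RNA polymerase II, Mediator and Integrator genes gained 4 of 24 (16.7%), cdk-8, ints-3, rpb-6 and ints-6. The nuclear pore and transport list gained 2 of 12, the nucleoporin gene npp-1 (69.0) and lmn-1 (76.2), which encodes a lamin and not a pore protein. The lmn-1 summit lay 946 bp upstream. With a promoter from 500 bp before a start to 100 bp after it, this list gained 1 of 13. Vesicle traffic genes gained 10 of 87 (11.5%) and cell cycle genes 4 of 34 (11.8%), among them mcm-5 (75.6) and the Aurora kinase gene air-1 (59.8). Several of these summits are shared with a divergent or adjacent gene, for instance mrpl-9 with kin-3, rpb-6 with dohh-1 and sars-1 with C47E12.2, and the data do not tell which of the pair a summit belongs to. The lists for translation and mitochondrial ribosomal proteins were also reached outside the band. IDR peaks held 37 of 66 and 26 of 70 of their genes, against 3114 of all 19973 protein-coding genes. The next regions would add 3 and 5 more, against 473 over all genes. The band's shares move with the rule that assigns genes. With the nearest start within 2000 bp, translation factors and tRNA ligases had 3 of 40 (7.50%) and mitochondrial ribosomal proteins 6 of 54 (11.1%), where all genes had 3.73%. They also moved with the library. Without replicate 2, translation factors and tRNA ligases had 4 of 32 (12.5%), vesicle traffic 5 of 83 (6.02%) and chromatin modifiers 1 of 50 (2.00%). The nuclear pore and transport list then had 6 of 14 (42.9%). Without replicate 1, mitochondrial ribosomal proteins had 6 of 45 (13.3%), splicing 1 of 31 (3.23%) and the nuclear pore and transport list 4 of 12 (33.3%). The share over all genes was 3.37% in both cases.

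**Figure D4:**
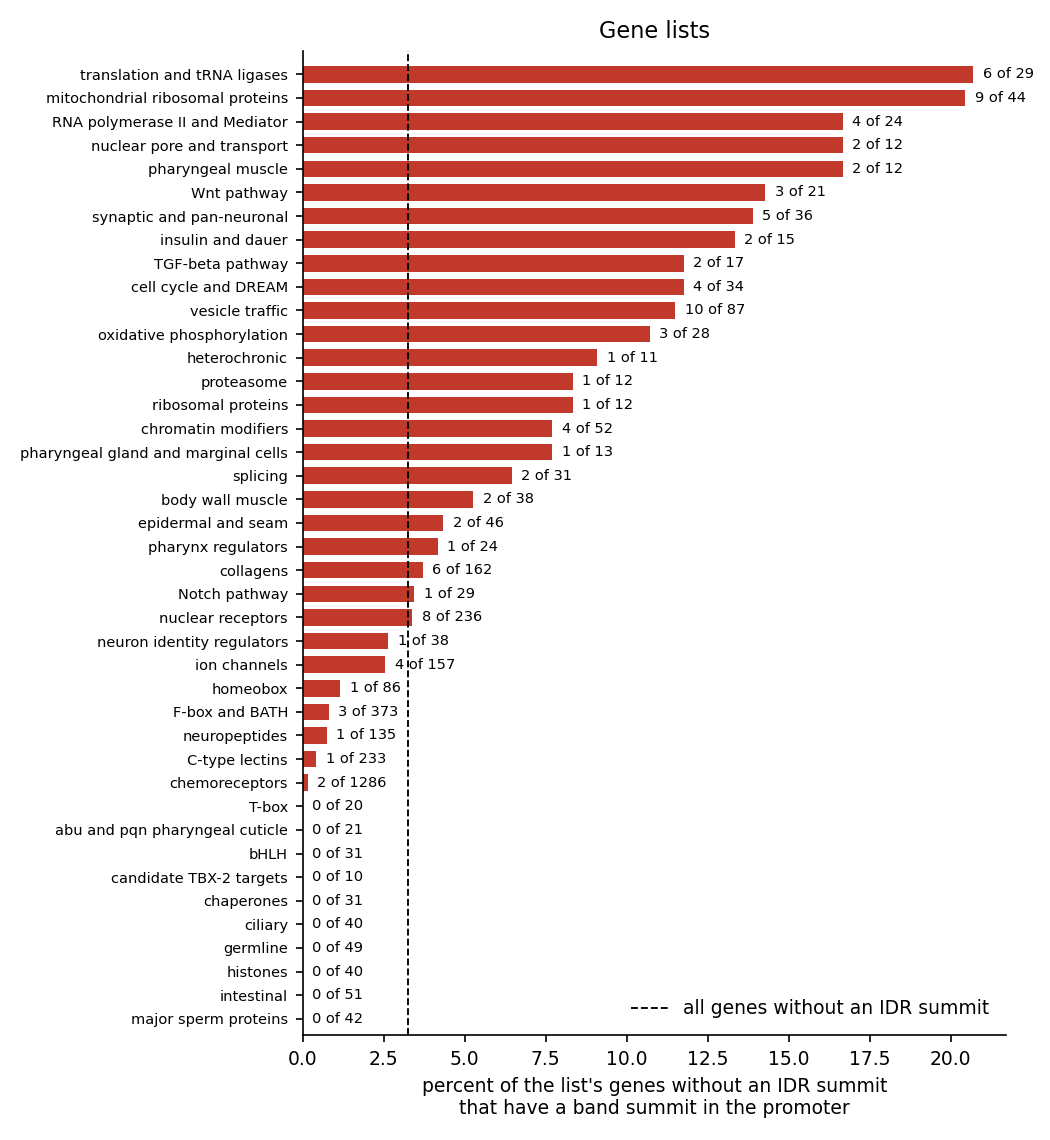
For each gene list with at least 10 genes lacking an IDR summit, the percent of those genes with a band summit in the promoter, with the counts beside each bar; the dashed line is the share over all 16859 such genes, 3.24%. The lists for translation (20.7%) and mitochondrial ribosomal proteins (20.5%) stand at the top, and 10 lists stand at 0.

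Signalling lists gained 1 to 3 genes each. The Wnt list gained 3 of 21 (14.3%), namely the Frizzled receptor genes lin-17 (signal 66.8) and mom-5 (59.3) and the kinase-partner gene tap-1 (62.5), whose region had no match in replicate 1. The TGF-beta list gained the type II receptor gene daf-4 (75.9) and the ligand gene tig-2 (68.9), 2 of 17 (11.8%; 3 of 18 without replicate 1). The Notch list gained sup-17, a metalloprotease that cuts the receptor (59.5), 1 of 29 (3.45%; 0 of 29 without replicate 2). The heterochronic list, for developmental timing, gained kin-20 (66.4), 1 of 11 (9.09%). The list for insulin signalling and dauer formation gained smk-1 (65.4) and hcf-1 (58.6), 2 of 15 (13.3%), and 1 gene in each replicate alone (6.67% without replicate 1 and 7.14% without replicate 2). Nuclear hormone receptors gained 8 of 236 (3.39%), led by nhr-19 (76.6) and nhr-65 (75.6), and collagens 6 of 162 (3.70%), led by col-142 (75.1). Both shares, and that of the Notch list, are near the background.

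Chemoreceptors, C-type lectins, neuropeptides and F-box and BATH genes had the lowest shares above 0. Chemoreceptors gained 2 of 1286 (0.156%), srw-145 (signal 64.9) and srv-7 (58.4). F-box and BATH genes gained 3 of 373 (0.804%), C-type lectins 1 of 233 (0.429%) and neuropeptides 1 of 135 (0.741%). Without replicate 2 neuropeptides gained 3 of 137 (2.19%) and C-type lectins none of 232. None of the 42 major sperm protein genes, 51 intestinal genes, 49 germline genes or 40 histone genes without an IDR summit had a band summit. At the background share each of these would hold between 1 and 2 genes.

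The 16 motifs searched were chosen with earlier results of these data known, so their p-values here and below are not independent support. Of these motifs, 10 differed between summit and flank past the threshold, 7 of them higher at the summit. The GAGA repeat was the most frequent of these 7. It was present within 50 bp of 305 band summits, 22.5% (interval 20.3 to 24.9), and in 75 windows of the same width centred 300 bp to the right, 5.54%. The summit alone held the GAGA repeat in 284 regions and the flank alone in 54 (adjusted p = 1.26e-37, exact two-sided McNemar test over 16 motifs). Of all 30000 regions 13.0% held it at the summit, and of the next regions 21.7%. IDR summits held it in 28.2% (1238), more often than the band (odds ratio for the band 0.740, interval 0.638 to 0.855; adjusted p = 0.000551, Fisher exact test). With 25 bp to each side of the summit the difference from IDR peaks was -1.11 percentage points and missed the threshold (adjusted p = 0.610, Fisher exact test). By class the repeat stood in 22.8% of band promoters and 24.9% of IDR promoters, and in 22.9% of intergenic band summits and 35.3% of intergenic IDR summits.

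Other sites were also more frequent at band summits than beside them. The E-box CACGTG, read by basic helix-loop-helix factors, was in 5.40% of summit windows and 1.11% of flanks (adjusted p = 1.02e-09, exact McNemar test), and in 3.03% of all 30000. The GC box GGGCGG was in 5.03% and 1.70% (2.75e-06; all regions 3.49%). The forkhead site of PHA-4 type was in 5.10% (69) and 2.37% (3.60e-04; all regions 2.86%). The T-box core was in 6.21% (84) and 3.84% (52), with an adjusted p of 0.0111 (all regions 4.93%). Its longer form GGTGTGA, which contains the core, was in 0.813% (11) and 0.961% (13) and did not pass (adjusted p = 0.832, exact McNemar test). Of all regions 0.817% held it. The CRE element TGACGT (5.76% and 3.47%, adjusted p = 0.0117) and the E-box CAGCTG (3.03% and 1.63%, 0.0293) were also higher at the summit by exact McNemar tests. They occurred in 4.26% and 2.55% of all regions. Neither passed in replicate 1 alone (0.300 and 0.658), and CAGCTG did not pass with 25 bp to each side (0.139) or the flank 500 bp away (0.552). Of these 7 motifs, the GAGA repeat was the 1 whose share differed between the band and the IDR peaks past the threshold in the pooled list. In each replicate's own list, the PHA-4 type site was less frequent at the ranks of the band than at those of the IDR peaks. The differences were -2.24 points without replicate 1 and -1.99 without replicate 2 (largest adjusted p = 0.0335, Fisher exact test). The same held for CACGTG without replicate 2 (-1.74, adjusted p = 0.0459, Fisher exact test). For the T-box core the odds ratio against IDR peaks was 0.838, with an interval of 0.646 to 1.08. Lower at the summit were TTTGAA (14.4% and 30.2%), TTTCAG, the 3′ splice acceptor sequence (6.80% and 18.3%), and the TATA box TATAAA (5.91% and 12.3%; largest adjusted p of these 1.75e-08). Of all regions 23.1%, 13.6% and 10.4% held these motifs, in that order. Base composition moved with these results. Summit windows averaged 42.7% G and C in the band and flanks 34.4%, and its part in the motif shares was not tested.

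**Figure D5:**
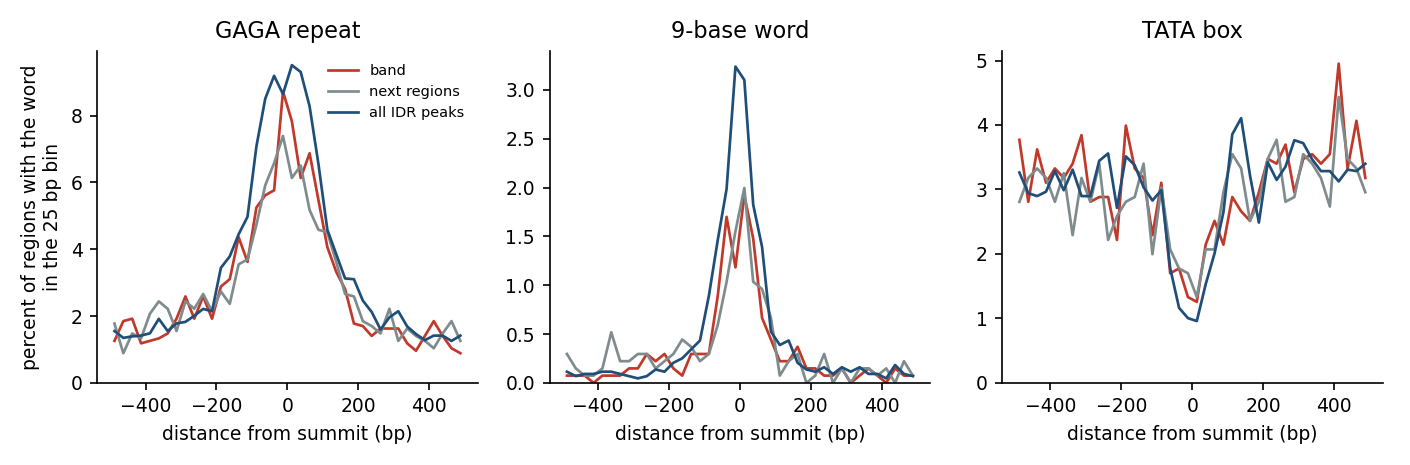
Percent of regions with the GAGA repeat, the 9-base word or the TATA box in each 25 bp bin, by distance from the summit, for the band, the next regions and all IDR peaks. In the band the GAGA repeat averages 7.11% per bin within 50 bp of the summit and 1.52% beyond 250 bp, and the TATA box 1.63% and 3.44%.

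Over all words of 6 bases, counted with their reverse complements, 424 (20.4%) were more frequent at band summits than in flanks and 268 (12.9%) less frequent, at an adjusted p under 0.05 by exact McNemar tests. The words that were higher had a mean of 3.92 G or C letters and those that were lower 1.36. The 5 words with the smallest p were AAAATT (17.5% of summits, 45.8% of flanks) and AAAAAT (24.5% and 50.6%), both lower, GAGAGA and AGAGAG (21.3% and 4.80%), both higher, and AAATTT (7.69% and 26.6%), lower. After these results were seen, CGTCTC (12.6% and 2.29%) and ACGCAG (10.7% and 1.55%) were joined by their overlap into a 9-base word (CTGCGTCTC), for which no test was made. It stood at 74 band summits, 5.47% (4.32 to 6.82), and in 0.296% of flanks. The next regions had it in 4.88%, all 30000 regions in 2.72% and IDR peaks in 9.33%. Its last letters can form part of a GAGA repeat, and 32 band regions held both. In promoters 7.84% of band summits held the word, in introns 4.03%.

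In 2 motifs the share of the band exceeded that of the IDR peaks past the threshold. TTTCAG (6.80% and 5.02%, adjusted p = 0.0539) and the TATA box (5.91% and 4.31%, 0.0587) missed it by Fisher exact tests. CACTTAA, a site of the NK-2 class to which the pharyngeal muscle factor CEH-22 belongs, was at 17 band summits (1.26%, interval 0.734 to 2.00) and at 17 IDR summits (0.388%), an odds ratio of 3.27 (1.56 to 6.83; adjusted p = 0.00640, Fisher exact test). Flanks of the band held it in 0.443% (adjusted p = 0.0505, exact McNemar test), the next regions in 0.665% and all 30000 regions in 0.693%. Flanks of IDR peaks held it in 0.867%, more often than IDR summits, and flanks of the next regions in 1.03%. The odds ratio thus goes with a low share at IDR summits as well as a higher one in the band. The difference from IDR peaks missed the threshold with 100 bp to each side (adjusted p = 0.107) and in replicate 2 alone (0.263), both by the Fisher exact test. Against flanks it turned to a lower share in replicate 2 alone. Promoters held 5 of the 17 regions, introns 7 and intergenic sequence 5. Examples are shown with the site in capitals, from an intron of rgs-4, an intron of eat-17, a gene needed for function of the pharynx, the promoter of C37H5.13 and intergenic sequence nearest to the homeobox gene ceh-58.
rgs-4 intron (chrII:12668096-12668126): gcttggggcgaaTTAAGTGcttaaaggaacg
eat-17 intron (chrX:16404924-16404954): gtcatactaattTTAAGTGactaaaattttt
C37H5.13 promoter (chrV:4862835-4862865): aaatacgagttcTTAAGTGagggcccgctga
ceh-58 intergenic (chrII:10370955-10370985): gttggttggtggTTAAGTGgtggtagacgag

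The eat-17 region had a pooled signal of 66.0, at rank 9892 in replicate 1 and 3608 in replicate 2. The GATA site TGATAAG was the second motif, at 3.33% of band summits and 1.92% of IDR summits (odds ratio 1.76, 1.19 to 2.57; adjusted p = 0.0171, Fisher exact test). It did not pass against flanks on the right (3.03%, adjusted p = 0.783, exact McNemar test). With the flank on the left the summit share was 1.48 points higher (0.0270), and with the flank 500 bp away 1.63 points higher (0.0165). With 25 bp to each side the difference from IDR peaks missed the threshold (adjusted p = 0.610, Fisher exact test). Of all 30000 regions 2.11% held it. G and C were fewer at band summits (42.7%) than at IDR summits (46.1%), and whether this bears on either motif was not tested.

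Around tbx-2 itself, 43 of all 30000 pooled regions lay within 20 kb of its start. They comprise 18 IDR peaks, 5 band regions and 20 lower regions. Of the sets of the band's size, the next regions had 4 there and the weakest IDR peaks 3. The strongest band region there lay 2638 bp upstream of the tbx-2 start, in an intron whose gene was not identified. It had a pooled signal of 76.0 and ranks 3786 and 6276 in replicates 1 and 2. The other signals were 74.4, 72.4, 70.2 and 58.8. The region of signal 70.2, in an intron nearest to sax-2, ranked 2312 in replicate 1 and 9824 in replicate 2. Copies of this stretch on the transgene would add to its signal, and their part cannot be told apart from binding at the native locus.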

How the data were processed

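ChIP-seq peak lists of 2 biological replicates of TBX-2-GFP L1 larvae were used. Per the notes deposited with the samples, the lists derive from replicate and control alignments. Aligner, caller, IDR cutoff and control strain are not given in the sources used here. In the deposited lists the signal of a region is the authors' value on an unstated scale. The authors' −log10 q-value was described only, and the summit position came from the deposited offset. Regions were ranked by signal and represented by summits on ce11, counted from 1. Gene models were those of Ensembl release 115 (WBcel235). Replicate summits were matched within 100 bp. Position shares were compared by two-sided Fisher exact tests, and motif and word shares at summit and flank by exact McNemar tests, with Benjamini-Hochberg adjustment at 0.05 (Python 3.11.15, SciPy 1.17.1). Both tests were tested on simulated data. Intervals are exact Clopper-Pearson intervals and cover the counting of regions only. Replicates were labelled as biological, with no statement on separate cultures.

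The members, the 42 gene lists and the 16 motifs were chosen with earlier results of these data known. The chemoreceptor list was narrowed to serpentine receptor families after its values were seen, because RefSeq gives other products for 2 of the genes counted before. Named regions are the 5 to each side of both ends of the band, the 12 with the highest mean rank and the 6 with the largest rank gap in replicates. Named genes are all pharyngeal, SUMO and T-box list members with a band summit, and up to 4 of each other list by signal. Alternatives covered promoter size, summit windows, flanks, reference sets, match distance and each replicate alone.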

Additional observations from a re-analysis of the deposited data

How the results depend on the processing

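Of 470 values recomputed under alternatives, over 101 results, 335 kept their direction and their side of the threshold or, for counts and shares, stayed close to the value reported. Against IDR peaks, the promoter share of the band stayed lower under every alternative run (differences of -17.3 to -6.36 percentage points), and so did the share near small RNA genes (-3.55 to -2.54 points). The X share was 0.877 points higher without replicate 2 and 2.99 without replicate 1, and 2.44 points higher than in the weakest IDR peaks, the first and last short of the threshold. Against those weakest peaks 2 of 12 features passed, where 6 passed against all IDR peaks, and chromosomes II and III turned to 0.443 and 0.370 points higher. Without one of the replicates the difference ranged from -0.977 to 0.0749 for II and from -2.41 to 0.107 for IV.

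Against all lower regions in place of the next ones, 10 of 12 features passed, where 0 did. The promoter difference was then 12.1 points, and the sign turned for X (6.02), small RNA genes (1.74), II (0.117), III (-2.32) and IV (-2.73). The small RNA difference also turned to 0.108 points without summits near IDR peaks and to 1.26 to 2.00 without one of the replicates (adjusted p = 0.0110 for the larger, Fisher exact test). In those replicate lists the differences for introns were 0.517 to 0.591, for II -0.739 to 0.443, for III -1.03 to -0.296 and for IV -0.887 to -0.665. Without replicate 2, 2 features passed.

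The number of motifs that differed from IDR peaks, 3 as reported, was 1 with 25 bp to each side and 4 to 6 without one of the replicates. TTTGAA turned to 0.768 and 0.417 points higher than in IDR peaks with 25 and 100 bp. With 25 bp the signs also turned for TGTTTAC (-0.129), TGACGT (-0.129) and the E2F site (0.0274). Without one of the replicates the difference from IDR peaks ranged from -0.478 to 1.95 for TTTGAA, from -0.965 to 0.0981 for the T-box core, from -0.224 to 0.379 for GGTGTGA, from -0.751 to -0.408 for TGACGT and from -0.0190 to 0.210 for TGTTTAC. Against flanks, GGTGTGA turned to 0.296 points with the flank on the left, TGATAAG to -0.517 with 25 bp and TGANTCA to 0.370 with the flank 500 bp away. Without one of the replicates GGTGTGA ranged from -0.222 to 0.0739, TGANTCA from -0.517 to 0.517 and CACTTAA from -0.296 to 0.148. None of the turned motif values passed the threshold.

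The share matched in both replicates was 68.4% within 50 bp, 97.9% within 200 bp and 99.0% by any overlap. With a tolerance of 1% in signal, 96.5% of band regions had a single match in the ce10 list. The band genes without an IDR summit numbered 402 to 709 over all rules. Of the 546, 279 were also newly reached at the band's ranks of replicate 2 alone and 199 at those of replicate 1 alone. Genes that a replicate already reached at the ranks of the IDR peaks are not in these counts. The causes of these changes were not tested. No paired analysis was possible because both samples belong to 1 group. What depth limits is unknown, since the lists hold no counts.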
